A study of Mus musculus with 81 samples.

Results

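The 34 genes described here are known transcriptional targets of the tumour suppressor p53, taken by symbol from a table of 51826 mouse genes and read gene by gene in normal thymus and in thymic lymphomas. The rule that lists them uses no value measured in these samples, but the list was chosen with earlier results of these data known. All 34 symbols were found, and 33 passed the filter on low counts; Eda2r, a death receptor of the tumour necrosis factor receptor family, did not pass and was not tested.

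RNA was sequenced from 81 tissue samples of 40 mice on a C57BL/6 x 129S4Sv/Jae background, in a study of what transient Plk4 induction, and with it centrosome amplification, does to tumour formation in mice with reduced p53. Every mouse, controls included, carried a Plk4 transgene at Col1a1 together with rtTA and centrin-GFP alleles at Rosa; doxycycline, which switches the Plk4 transgene on through rtTA, was given for 2 weeks from 30 days of age to the treated animals. The groups were normal thymus of 8 untreated p53+/+ mice, lymphomas of 10 untreated p53-/- mice, lymphomas of 9 doxycycline-treated p53-/- mice, lymphomas of 12 doxycycline-treated p53+/- mice, and normal thymus of 1 untreated p53+/- mouse. In 13 of the 31 lymphoma-bearing mice several biopsies of a tumour were sequenced, and their counts were summed so that each mouse counts once. No lymphoma of a p53+/+ mouse and no untreated p53+/- lymphoma was analysed here, and the labels do not say whether the p53+/- tumours kept their remaining allele, nor how old the animals were when tissue was taken. Loss of p53 and everything else that separates a lymphoma from a normal thymus therefore cannot be told apart in any comparison with normal thymus.

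The p53 protein binds DNA as a tetramer at pairs of short palindromic half-sites and activates genes that stop the cell cycle, start apoptosis, repair DNA or adjust metabolism. Several targets feed back on p53 itself, with the ubiquitin ligase Mdm2 as the main brake. In thymocytes p53 limits survival after DNA breaks and after errors of receptor rearrangement, and mice without it are prone to thymic lymphoma. Many targets also have other activators, so transcripts can persist where p53 is missing.

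The promoter sequence around the RefSeq transcription start (GRCm38.p6, 250 bases before to 50 after) was available for 26 of the 34 genes. A 10-base p53 half-site consensus with no mismatch, which is its own reverse complement so that a match covers both strands, was found in 10 of these 26 (38.5%), against 9.55% of 27025 genes with a promoter in the same table. A pair of half-sites separated by at most 1 base, with at most 2 mismatches in all, was found in 4 of 26 (15.4%), against 0.807% of all genes. Those 4 were Cdkn1a, Ccng1, Bax and Gtse1, and they are printed because they behaved in 3 different ways in the tumours: Cdkn1a and Ccng1 were lower, Bax was near its normal level and Gtse1 was higher. Mdm2 is printed beside them because its level was close to normal. Its window, around its 1 annotated start, held a single half-site, and sites outside the windows were not searched in any gene. Capitals mark the matched pair, or the half-site in Mdm2. Each sequence is given 5′ to 3′ on the strand of the gene, Cdkn1a as chr17:29090729-29090978 on the plus strand (1 of 2 annotated starts, match beginning 51 bases before the start), Ccng1 as chr11:40755287-40755536 on the minus strand (195 bases before), Bax as chr7:45466899-45467148 on the minus strand (201 bases before), Gtse1 as chr15:85859696-85859975 on the plus strand (1 of 2 annotated starts, 2 overlapping pairs in 31 bases, beginning 1 base before the start) and Mdm2 as chr10:117710759-117711008 on the minus strand (186 bases before). A match is a description of these letters and not evidence of binding.
Cdkn1a: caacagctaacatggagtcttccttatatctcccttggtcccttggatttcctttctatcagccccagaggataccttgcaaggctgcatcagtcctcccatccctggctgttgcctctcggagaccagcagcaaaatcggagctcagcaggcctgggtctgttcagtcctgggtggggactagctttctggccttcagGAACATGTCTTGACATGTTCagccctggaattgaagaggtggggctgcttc
Ccng1: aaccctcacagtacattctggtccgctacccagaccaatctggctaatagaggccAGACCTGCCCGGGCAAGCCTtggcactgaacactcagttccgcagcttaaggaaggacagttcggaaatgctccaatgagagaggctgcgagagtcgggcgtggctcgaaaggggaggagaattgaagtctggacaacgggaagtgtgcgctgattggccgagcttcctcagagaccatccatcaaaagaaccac
Bax: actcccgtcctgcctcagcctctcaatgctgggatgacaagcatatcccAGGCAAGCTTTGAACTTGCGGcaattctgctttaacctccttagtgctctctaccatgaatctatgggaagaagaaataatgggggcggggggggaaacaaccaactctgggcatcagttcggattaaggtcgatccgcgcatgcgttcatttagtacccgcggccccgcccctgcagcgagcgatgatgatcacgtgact
Gtse1: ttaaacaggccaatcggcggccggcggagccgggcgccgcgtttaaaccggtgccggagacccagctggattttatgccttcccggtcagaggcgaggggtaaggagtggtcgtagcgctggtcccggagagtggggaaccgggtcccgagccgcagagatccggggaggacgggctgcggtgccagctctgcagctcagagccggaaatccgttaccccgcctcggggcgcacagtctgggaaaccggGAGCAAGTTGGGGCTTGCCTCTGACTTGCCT
Mdm2: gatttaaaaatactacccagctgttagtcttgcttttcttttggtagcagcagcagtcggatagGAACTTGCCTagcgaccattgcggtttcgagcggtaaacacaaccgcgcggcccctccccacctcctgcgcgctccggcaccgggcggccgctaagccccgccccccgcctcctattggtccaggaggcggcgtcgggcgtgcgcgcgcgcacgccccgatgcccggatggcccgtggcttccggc

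Libraries held 1030400 to 26871729 counts and the summed mice 5009244 to 98590603. The normal thymus of mouse 387 stood apart from the others: summed T-lineage markers were at 1098 counts-per-million units (CPM) against a group median of 6249. Summed proliferation markers were low in the normal thymuses of mice 387, 961 and 978 (465, 620 and 299 CPM). The other normal thymuses had 1374 CPM or more. In the lymphoma of untreated p53-/- mouse 881 T-lineage markers summed to 187 CPM and B-lineage markers to 2726 CPM, while T-lineage sums in the other lymphomas were 1459 CPM or more. The p53+/+ normal thymuses came from 4 male and 4 female mice by label. Lymphomas were labelled male and female in 9 and 1 untreated p53-/-, 4 and 5 treated p53-/- and 3 and 9 treated p53+/- mice. The labelled sex of 3 of 40 mice (869, 870 and 328) went against Xist and Y-linked transcripts. Thymic epithelial markers summed to 102 to 1640 CPM in normal thymus and to at most 344 CPM in any lymphoma, fat markers to 741 to 11872 CPM in normal thymus and to at most 229 CPM, and proliferation markers to 299 to 2262 CPM in normal thymus and to 2055 to 4224 CPM in the lymphomas. B-lineage markers summed to 68.6 to 1170 CPM in normal thymus and to at most 93.5 CPM in the lymphomas other than those of untreated p53-/- mice 881 and 98 (400 CPM), and 5 of 5 of them were lower in each treated group and 0 of 5 called in the untreated one. The part of these shifts in the results was not tested. In such bulk tissue, fewer cells that express a gene and less RNA of it per cell cannot be told apart.

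Trp53 itself, the gene of p53, was read at 67.9 to 107 CPM (median 96.2) in normal thymus, 14.1 to 92.8 CPM (median 45.4) in untreated p53-/- lymphomas, 25.6 to 74.2 CPM (median 44.3) in treated p53-/- lymphomas and 17.7 to 71 CPM (median 39.9) in treated p53+/- lymphomas. The p53-/- tumours thus kept Trp53 reads. The labels used here do not describe the null allele, so gene-level counts do not check the genotype of single mice. The p53-/- and p53+/- lymphomas covered overlapping ranges of Trp53.

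Against normal thymus the 33 tested targets split into genes that were lower, genes that were higher and genes that were not called, where a call is an adjusted p under 0.05 in edgeR's quasi-likelihood test over all 17843 genes tested. In untreated p53-/- lymphomas 10 of the 33 were lower (30.3%, against 17.5% of all genes) and 5 higher (15.2%, against 23.2%). Without scaling factors these were 12 lower and 4 higher, against 19.9% and 17.4% of all genes. In treated p53-/- lymphomas 16 were lower (48.5%, against 26.7%) and 3 higher (9.09%, against 25.4%). In treated p53+/- lymphomas 12 were lower (36.4%, against 25.3%) and 4 higher (12.1%, against 25.6%). The share called in either direction was 45.5%, 57.6% and 48.5%, close to the 40.7%, 52.1% and 50.9% of all genes, and lower calls outnumbered higher ones in each group. Their median log2 fold changes were -0.53, -0.62 and -0.50, where those of all genes tested were 0.08, -0.04 and -0.00. The 3 comparisons share the same 8 normal thymuses and are not independent of each other.

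Across the 3 lymphoma groups 9 targets were lower in all (Cdkn1a, Ccng1, Phlda3, Perp, Fas, Dram1, Dcxr, Ak1 and Sesn1) and 3 were higher in all (Ptprv, Gtse1 and Triap1). These were 27.3% and 9.09% of the 33, where 15.2% and 18.4% of all genes tested were lower and higher in all 3. A further 8 were lower in 1 or 2 groups, 3 were higher in 1 group, and 10 were called in none. The shares of all genes with these last patterns are not given, so no result about the targets is read from these counts. Every call of those 12 genes was kept when any single mouse, 387 and 881 included, was left out, an alternative chosen after seeing the data. Without mouse 387 the counts of lower targets were 10 and 11 in the untreated and treated p53-/- tumours and 11 in the p53+/- tumours, and without the 3 mice of doubtful sex label they were 10, 14 and 11 of the same 33. Eda2r, which passed the low-count filter without those mice, is not in these counts. All 50 called values kept their sign after the median log2 fold change of the gene's own chromosome was subtracted.

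**Figure D1:**
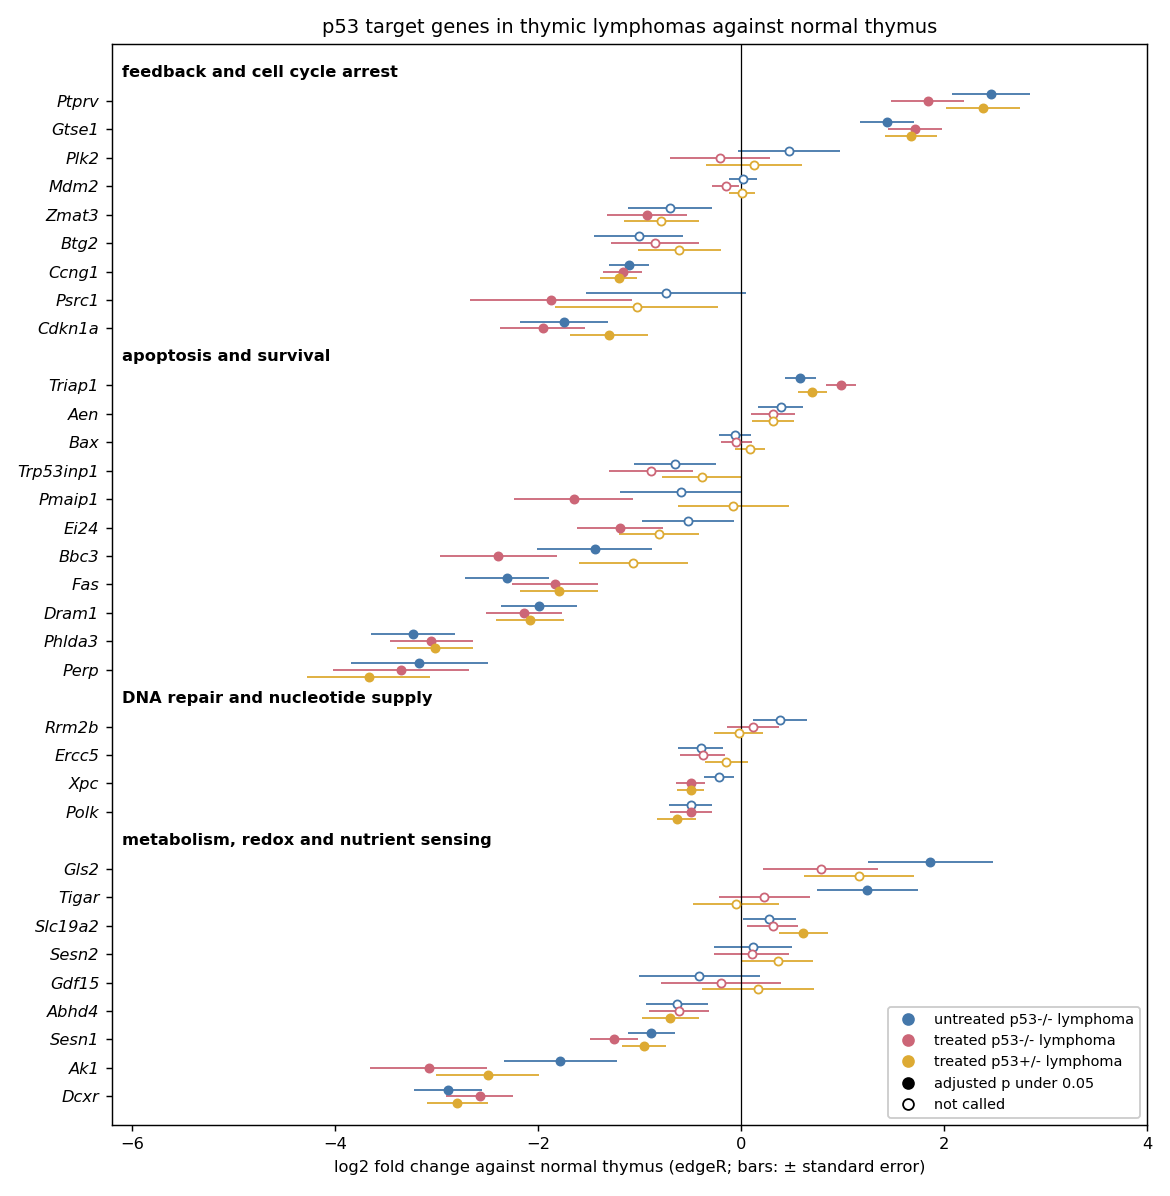
Log2 fold change of the 33 tested targets (rows, grouped by role) in untreated p53-/- (blue), treated p53-/- (red) and treated p53+/- (yellow) lymphomas against normal thymus, with the standard error as a bar; filled points have an adjusted p under 0.05. Perp, Phlda3 and Dcxr lie at -2.58 or lower in all 3 groups and Ptprv lies farthest to the right, while Mdm2 and Bax sit near the line of no change.

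Among the 9 targets that act in feedback and cell cycle arrest, 2 were lower and 2 higher in untreated p53-/- lymphomas, 4 and 2 in treated p53-/- lymphomas, and 2 and 2 in treated p53+/- lymphomas. Lower calls were thus 22.2%, 44.4% and 22.2% of them, against 17.5%, 26.7% and 25.3% of all genes, and higher calls 22.2% in each group, against 23.2%, 25.4% and 25.6%, so that most of these shares were near the background. Cdkn1a (ENSMUSG00000023067, chr17:29090976-29100727, plus strand) encodes p21, the cyclin-dependent kinase inhibitor that holds cells in G1. Its level was 28 to 60.2 CPM (median 37) in normal thymus, 3.42 to 29.8 CPM (median 13.2) in untreated p53-/- lymphomas, 6.3 to 28 CPM (median 8.76) in treated p53-/- lymphomas and 6.5 to 61.2 CPM (median 15.1) in treated p53+/- lymphomas. In untreated p53-/- tumours 9 of 10 mice and in treated p53-/- tumours 8 of 9 lay below every normal thymus, and in treated p53+/- tumours 10 of 12 did while mouse 884 lay above all of them. The log2 fold changes were -1.75 ± 0.43 (SE, adjusted p = 0.00137), -1.96 ± 0.42 (adjusted p = 0.000196) and -1.30 ± 0.39 (adjusted p = 0.00536).

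Ccng1 (ENSMUSG00000020326, chr11:40748552-40755311, minus strand) encodes cyclin G1, which recruits a phosphatase to Mdm2. Normal thymus had 93.3 to 157 CPM (median 121) of it, untreated p53-/- lymphomas 25 to 113 CPM (median 63), treated p53-/- lymphomas 40.5 to 84.6 CPM (median 61.9) and treated p53+/- lymphomas 40.4 to 87.2 CPM (median 54.9). All treated tumours were below all normal thymuses, and 9 of 10 untreated ones were. Its log2 fold changes were close to each other, at -1.11 ± 0.20, -1.17 ± 0.20 and -1.21 ± 0.18, with adjusted p values of 3.61e-05, 7.16e-06 and 1.41e-06.

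Gtse1 (ENSMUSG00000022385, chr15:85859745-85876573, plus strand), whose product is made in G2 and S phase and restrains p53, went the other way. It stood at 6.42 to 35.2 CPM (median 25.6) in normal thymus, 40.5 to 97.3 CPM (median 68.1) in untreated p53-/-, 45.5 to 107 CPM (median 82.2) in treated p53-/- and 50.1 to 125 CPM (median 77.7) in treated p53+/- lymphomas, and every tumour exceeded every normal thymus. The log2 fold changes were 1.44 ± 0.26, 1.71 ± 0.26 and 1.67 ± 0.26 (adjusted p at most 3.88e-05). Of 9 proliferation markers 8 were likewise higher in each lymphoma group, with median log2 fold changes of 1.03, 1.43 and 1.48. The normal thymuses of mice 387, 961 and 978, low in these markers, had 7.43, 12.1 and 6.42 CPM of Gtse1. The other normal thymuses had 24.3 CPM or more. The part of proliferation in the Gtse1 values was not tested.

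Ptprv (ENSMUSG00000097993, chr1:135108497-135132594, minus strand), a protein tyrosine phosphatase linked to p53-dependent G1 arrest in the mouse, was the target with the largest increase. Normal thymus had 3 to 6.02 CPM (median 4.28), untreated p53-/- lymphomas 7.4 to 43.3 CPM (median 21.3), treated p53-/- lymphomas 4.44 to 31.6 CPM (median 18.1) and treated p53+/- lymphomas 12.5 to 82.8 CPM (median 24.9). All untreated p53-/- and all p53+/- tumours were above every normal thymus, as were 8 of 9 treated p53-/- tumours, mouse 663 being the exception at 4.44 CPM. Log2 fold changes were 2.46 ± 0.38, 1.84 ± 0.36 and 2.38 ± 0.36, with adjusted p values of 3.8e-06, 6.91e-05 and 1.57e-06. The annotation lists Ptprv as a processed transcript that overlaps another gene model, Gm10535, and its expected counts were not whole numbers in 58 of 81 libraries, so reads may be shared between models and its level is uncertain.

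Mdm2 (ENSMUSG00000020184, chr10:117688875-117710758, minus strand), the ubiquitin ligase that marks p53 for degradation, and Plk2 (ENSMUSG00000021701, chr13:110395046-110400844, plus strand), a stress-induced polo-like kinase, were called in no group. Mdm2 had 56.2 to 80.6 CPM (median 70.9) in normal thymus, 49.2 to 96.3 CPM (median 78.2) in untreated p53-/-, 58.8 to 83.3 CPM (median 73.1) in treated p53-/- and 48.5 to 117 CPM (median 80.9) in treated p53+/- lymphomas. The ranges overlapped throughout, and the log2 fold changes of 0.02 ± 0.14, -0.15 ± 0.14 and 0.01 ± 0.13 were not called (adjusted p at least 0.347). Other scaling turned the sign of Mdm2 in the untreated p53-/- and the p53+/- tumours. Of the 19 tumours labelled p53-/- 18 held Mdm2 transcripts within or above the range of p53+/+ thymus.

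Plk2 had 3.41 to 9.39 CPM (median 5.06), 2.43 to 31.3 CPM (median 4.69), 2.63 to 10.7 CPM (median 5.45) and 2.58 to 36.9 CPM (median 5.34) in the same order of groups. Single tumours were high, namely untreated p53-/- mouse 881 at 31.3 CPM and treated p53+/- mouse 905 at 36.9 CPM. Its log2 fold change in untreated p53-/- tumours was 0.47 and turned to -0.24 without mouse 881. In p53+/- tumours it was 0.12 and turned to -0.37 without mouse 905. It was not called in any group (adjusted p at least 0.47).

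The remaining 3 arrest genes were lower in 1 group or in none. Zmat3, a zinc finger RNA-binding protein, had a log2 fold change of -0.93 ± 0.40 in treated p53-/- lymphomas (adjusted p = 0.0474), a call lost on leaving out any 1 of 11 of the 17 mice (adjusted p up to 0.142), and of -0.70 and -0.79, not called, in the others. The p53+/- value was called with DESeq2, limma voom, no scaling factors and without mouse 862 or 894 (adjusted p = 0.0489, 0.0405 and 0.0432 for the first 3). Psrc1, a spindle-associated protein, had -1.87 ± 0.80 in treated p53-/- lymphomas (adjusted p = 0.0464), a call lost on leaving out any 1 of 14 of the 17 mice (adjusted p up to 0.0779). It had -0.74, not called, in untreated p53-/- lymphomas and -1.03 ± 0.81 in p53+/- lymphomas (adjusted p = 0.29). The normal thymuses of mice 387, 961 and 978, low in proliferation markers, had 3.98, 6.08 and 3.6 CPM of Psrc1, and the others 12 CPM or more. Without mouse 862, whose tumour had 54.4 CPM of Psrc1 where the group median was 1.93 CPM, the p53+/- value was -2.41 (adjusted p = 0.00113), and with limma voom it was -1.96 (adjusted p = 0.0183). Btg2, an anti-proliferative gene that is also an immediate early gene, had -1.01, -0.85 and -0.61 and was not called (adjusted p at least 0.0626). In untreated tumours it was called with DESeq2, limma voom, no scaling factors and 1 biopsy per mouse (adjusted p = 0.0432, 0.0281, 0.0464 and 0.0491) and without mouse 562 or 98, and in treated p53-/- tumours when only those 2 groups were fitted (adjusted p = 0.0343).

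Of the 11 tested targets in apoptosis and survival, 5 were lower in untreated p53-/- lymphomas, 7 in treated p53-/- lymphomas and 4 in treated p53+/- lymphomas, and 1, Triap1, was higher in each. The lower shares of 45.5%, 63.6% and 36.4% compare with 17.5%, 26.7% and 25.3% of all genes, and the higher share of 9.09% in each group with 23.2%, 25.4% and 25.6%. The largest decreases were in Phlda3 and Perp. Phlda3 (ENSMUSG00000041801, chr1:135766119-135769136, plus strand) encodes a pleckstrin-homology protein that holds back Akt signalling. Its level was 31.2 to 94.4 CPM (median 42.8) in normal thymus, 0.422 to 11.8 CPM (median 4.74) in untreated p53-/- lymphomas, 2.83 to 9.13 CPM (median 6.1) in treated p53-/- lymphomas and 1.46 to 11.9 CPM (median 6.42) in treated p53+/- lymphomas. Each of the 31 tumours was below each of the 8 normal thymuses, with log2 fold changes of -3.23 ± 0.42, -3.05 ± 0.41 and -3.02 ± 0.37 (adjusted p at most 1.84e-07).

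Perp (ENSMUSG00000019851, chr10:18845020-18857073, plus strand) encodes a tetraspan membrane protein of desmosomes that also takes part in apoptosis. Normal thymus had 8.47 to 136 CPM (median 77.4), untreated p53-/- lymphomas 1.67 to 28.5 CPM (median 5.84), treated p53-/- lymphomas 1.04 to 20.2 CPM (median 5.95) and treated p53+/- lymphomas 0.269 to 16.7 CPM (median 5.23). Groups overlapped through the lowest normal thymus, mouse 387, which also had the lowest sum of thymic epithelial markers among normal thymuses (102 CPM). The log2 fold changes were -3.17 ± 0.67, -3.35 ± 0.67 and -3.67 ± 0.61 (adjusted p at most 0.000272). The 2 untreated tumours highest in Perp, those of mice 881 (28.5 CPM) and 202 (24.8 CPM), also had the highest epithelial sums of their group, 342 and 344 CPM. The 2 p53+/- tumours highest in Perp, of mice 905 and 25, likewise had the highest sums of theirs, 112 and 133 CPM. In treated p53-/- tumours the highest in Perp, mouse 870 at 20.2 CPM, had a sum of 70.8 CPM, while mouse 663, with the highest sum (157 CPM), had 5.95 CPM of Perp. The part of epithelium in the Perp values was not tested.

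Fas (ENSMUSG00000024778, chr19:34290666-34327772, plus strand), the death receptor that removes lymphocytes, stood at 26 to 55.7 CPM (median 41.4) in normal thymus, 2.42 to 24.7 CPM (median 7.17) in untreated p53-/-, 2.22 to 18.9 CPM (median 13.9) in treated p53-/- and 1.27 to 27.1 CPM (median 14.2) in treated p53+/- lymphomas. All p53-/- tumours and 11 of 12 p53+/- tumours were below every normal thymus. Log2 fold changes came to -2.30 ± 0.41, -1.83 ± 0.42 and -1.79 ± 0.39, with adjusted p values of 3.19e-05, 0.000461 and 0.000222. Dram1 (ENSMUSG00000020057, chr10:88322804-88379080, minus strand), a lysosomal membrane protein that promotes autophagy, had 15.1 to 76.5 CPM (median 19.5), 1.17 to 10.9 CPM (median 7.06), 3.72 to 13.1 CPM (median 6.12) and 2.97 to 12.5 CPM (median 6.15) in the same order. Every tumour was below every normal thymus, and log2 fold changes were -2.0 ± 0.37, -2.14 ± 0.37 and -2.08 ± 0.34 (adjusted p at most 5.64e-05). Without normal mouse 387, the highest in Dram1, the values in the treated p53-/- and p53+/- groups were -1.55 and -1.49.

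Triap1 (ENSMUSG00000029535, chr5:115341225-115343569, plus strand), a small mitochondrial intermembrane protein that opposes apoptosis, rose in all 3 groups. Normal thymus had 18 to 26.6 CPM (median 19.9), untreated p53-/- lymphomas 22.8 to 48 CPM (median 32.2), treated p53-/- lymphomas 29.9 to 63.9 CPM (median 44.8) and treated p53+/- lymphomas 28.4 to 53.5 CPM (median 36.7). All treated tumours and 6 of 10 untreated ones were above every normal thymus. Log2 fold changes were 0.58 ± 0.15, 0.99 ± 0.15 and 0.70 ± 0.14, with adjusted p values of 0.00197, 1.17e-06 and 9.73e-05. The median log2 fold change of all tested genes on its chromosome, 5, was 0.49, 0.48 and 0.44 in the same groups, so that Triap1 was 0.09, 0.51 and 0.26 above its chromosome.

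The 2 BH3-only genes encode proteins that bind anti-apoptotic Bcl2 proteins. Bbc3, which encodes Puma (ENSMUSG00000002083, chr7:16308393-16318205, plus strand), stood at 7.49 to 39.1 CPM (median 18.4) in normal thymus, 1.95 to 15.7 CPM (median 7.44) in untreated p53-/-, 0.654 to 9.67 CPM (median 1.99) in treated p53-/- and 1.74 to 36.9 CPM (median 8.69) in treated p53+/- lymphomas. It was lower in both p53-/- groups, by log2 fold changes of -1.45 ± 0.57 (adjusted p = 0.04) and -2.39 ± 0.58 (adjusted p = 0.00076). The call in untreated tumours was lost on leaving out any 1 of 11 of the 18 mice (adjusted p up to 0.0768). In p53+/- tumours the value was -1.06 ± 0.54 (adjusted p = 0.0961), and it was called without mouse 280 (-1.29, adjusted p = 0.0365) and with limma voom (-1.62, adjusted p = 0.0026). The ranges of all groups overlapped, and 6 of 9 treated p53-/- tumours were below every normal thymus.

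Pmaip1, which encodes Noxa, had 3.92 to 14.3 CPM (median 8.79) in normal thymus, 1.41 to 13 CPM (median 5.55) in untreated p53-/-, 0.871 to 5.1 CPM (median 3.25) in treated p53-/- and 1.01 to 61 CPM (median 5.17) in treated p53+/- lymphomas. It was lower in treated p53-/- tumours, with a log2 fold change of -1.65 ± 0.59 (adjusted p = 0.0177, and 0.0532 without normal mouse 387), where 8 of 9 were below every normal thymus. In p53+/- tumours the value was -0.08 ± 0.55 (adjusted p = 0.918), and without mouse 862, at 61.0 CPM, it was -1.01 (adjusted p = 0.0408). In untreated p53-/- tumours it was -0.59 ± 0.60 (adjusted p = 0.449).

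Bax (ENSMUSG00000003873, chr7:45461697-45466898, minus strand), which forms the pore in the outer mitochondrial membrane, was close to its level in normal thymus. It had 34.3 to 51.3 CPM (median 47) in normal thymus, 35.1 to 65.7 CPM (median 47.9) in untreated p53-/-, 41.3 to 60.2 CPM (median 49.6) in treated p53-/- and 33.9 to 106 CPM (median 51.2) in treated p53+/- lymphomas. The ranges overlapped, and log2 fold changes of -0.06 ± 0.16, -0.05 ± 0.15 and 0.09 ± 0.15, the last of which was negative without scaling factors, were not called (adjusted p at least 0.642). Bax overlaps the gene model Gm45808, and its expected counts were not whole in 40 of 81 libraries, so its level is uncertain. Aen, a nuclease of apoptosis, had 0.39, 0.31 and 0.31 and was not called (adjusted p at least 0.161), except in p53+/- tumours without mouse 266 (adjusted p = 0.0459).

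Ei24, an endoplasmic reticulum protein that overlaps the gene model Gm26787, was lower in treated p53-/- tumours at -1.19 ± 0.43 (adjusted p = 0.0185), which was no longer called without normal mouse 387 (-0.92, adjusted p = 0.0728). In untreated p53-/- tumours it had -0.53, not called, with 6 of 10 tumours below and 3 above every normal thymus. In p53+/- tumours its value was -0.81 (adjusted p = 0.0842) and, without mouse 862, -1.06 (adjusted p = 0.0188). It was also called there with limma voom, without the sex term and when only the 2 groups were fitted (adjusted p = 0.0349, 0.0473 and 0.00751). Trp53inp1, a cofactor of p53 in the stress response, had -0.65, -0.89 and -0.39 and was not called (adjusted p at least 0.0693). In treated p53-/- tumours it was called when only those 2 groups were fitted (adjusted p = 0.0359) and without mouse 553 or 659. Eda2r, not tested, was at 0 to 9.51 CPM (median 0.712) in normal thymus and at most 1.9 CPM in any tumour.

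**Figure D2:**
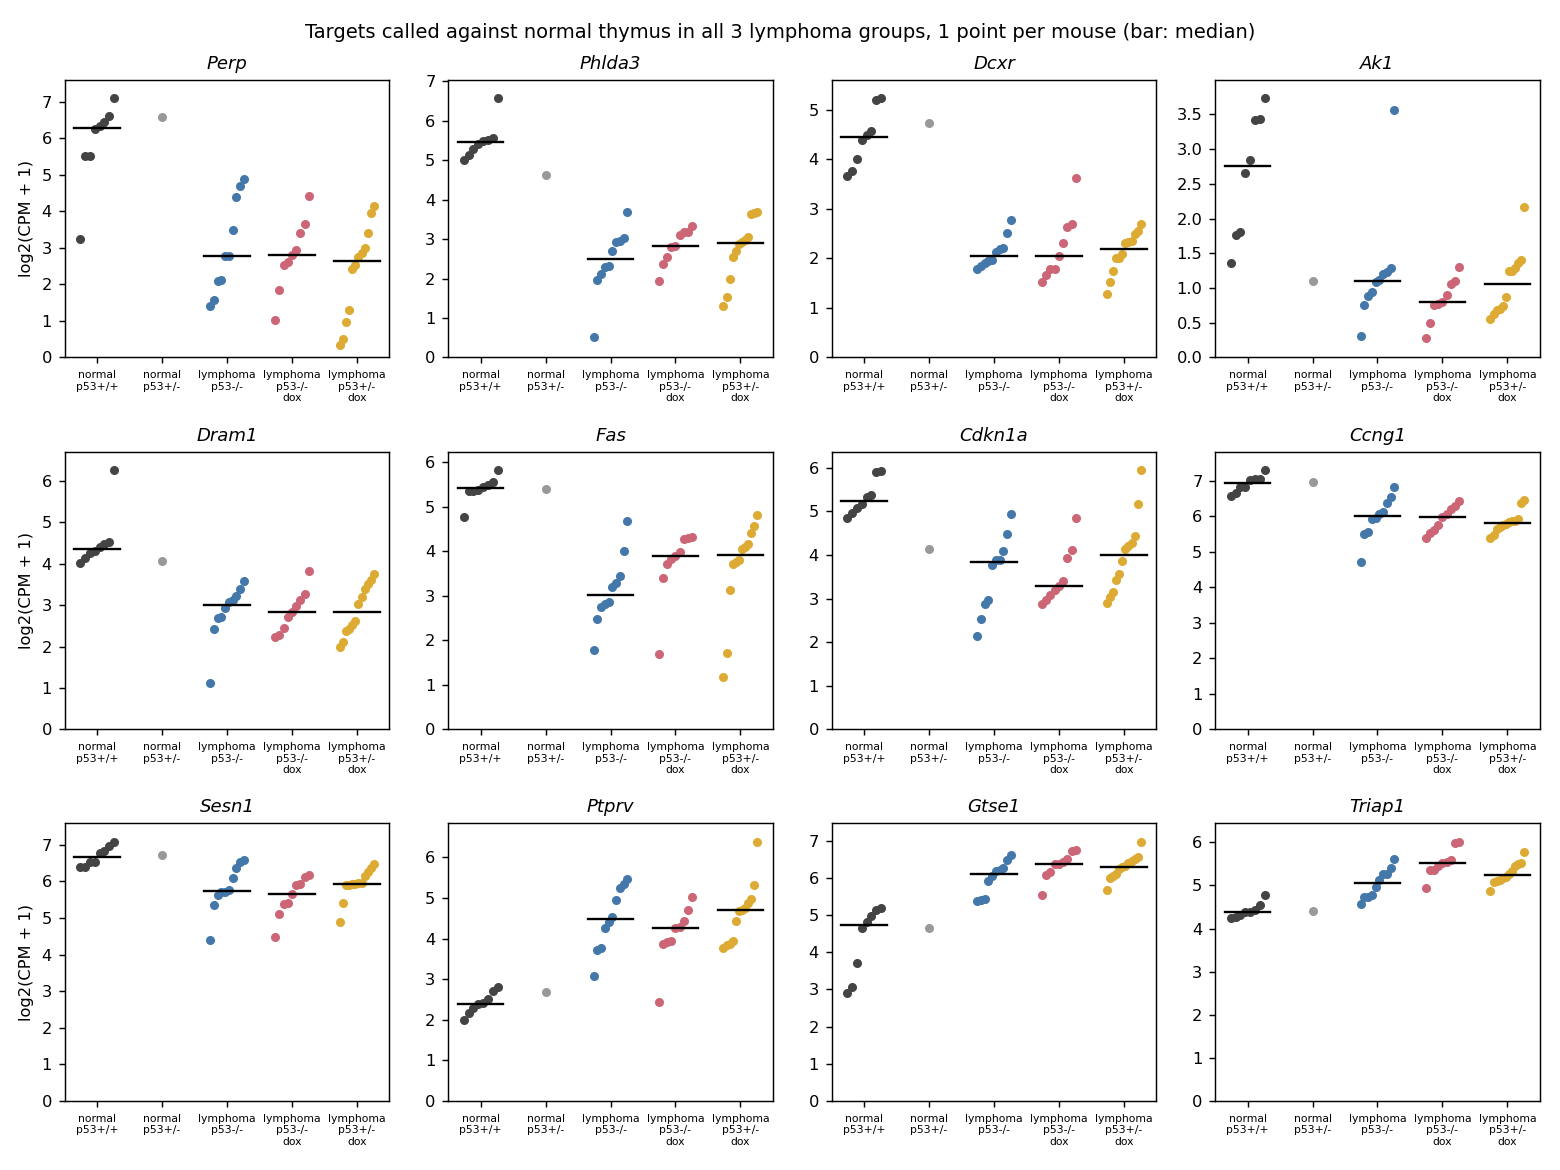
Level of the 12 targets called in the same direction in all 3 lymphoma groups, as log2(CPM + 1) on the vertical axis, with 1 point per mouse sorted by value within each group and the group median as a bar; dox marks doxycycline-treated mice. Phlda3, Dcxr, Dram1 and Gtse1 separate every tumour from the 8 p53+/+ thymuses, while the lymphoma groups overlap with each other in all 12 panels.

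Of the 4 targets in DNA repair and nucleotide supply none was called in untreated p53-/- lymphomas (0%, against 40.7% of all genes). In each treated group 2 were lower (50%, against 26.7% and 25.3% of all genes) and 0 higher (0%, against 25.4% and 25.6%). Polk, a translesion DNA polymerase, had a log2 fold change of -0.50 ± 0.21 in untreated p53-/- tumours (adjusted p = 0.0538), which was called with DESeq2, limma voom, RLE factors, no scaling factors, 1 biopsy per mouse and without mouse 881 (adjusted p from 0.0126 to 0.0466). It had -0.50 ± 0.21 in treated p53-/- (adjusted p = 0.0416) and -0.64 ± 0.19 in treated p53+/- tumours (adjusted p = 0.00664), and the call in treated p53-/- tumours was lost on leaving out any 1 of 12 of the 17 mice (adjusted p up to 0.176). Xpc, the damage sensor of nucleotide excision repair, had -0.50 ± 0.14 in treated p53-/- and -0.50 ± 0.14 in treated p53+/- tumours (adjusted p = 0.0036 and 0.00244). In untreated p53-/- tumours Xpc had -0.22, not called. The incision nuclease Ercc5 was not called (-0.40, -0.38 and -0.15, adjusted p at least 0.151), except with limma voom in untreated tumours (-0.66, adjusted p = 0.0179).

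Rrm2b (ENSMUSG00000022292, chr15:37923952-37961318, minus strand), the p53-inducible subunit of ribonucleotide reductase, had 14 to 34.4 CPM (median 17.9) in normal thymus, 13.7 to 65.7 CPM (median 21.5) in untreated p53-/-, 16.5 to 30.7 CPM (median 22.9) in treated p53-/- and 11.7 to 42.6 CPM (median 17.8) in treated p53+/- lymphomas. The ranges overlapped and the values of 0.38 ± 0.26, 0.12 ± 0.25 and -0.02 ± 0.24 were not called (adjusted p at least 0.257). Its counts were not whole in 36 of 81 libraries, and it overlaps the gene models Gm3362 and Gm49085, so its level is uncertain.

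Among the 9 targets in metabolism, redox and nutrient sensing, 3 were lower and 2 higher in untreated p53-/- lymphomas, 3 and 0 in treated p53-/- lymphomas, and 4 and 1 in treated p53+/- lymphomas. Lower calls came to 33.3%, 33.3% and 44.4% of them, against 17.5%, 26.7% and 25.3% of all genes, and higher calls to 22.2%, 0% and 11.1%, against 23.2%, 25.4% and 25.6%. Dcxr (ENSMUSG00000039450, chr11:120725399-120727281, minus strand), a reductase of dicarbonyls and L-xylulose, had 11.8 to 36.8 CPM (median 20.8) in normal thymus, 2.45 to 5.82 CPM (median 3.15) in untreated p53-/-, 1.86 to 11.4 CPM (median 3.16) in treated p53-/- and 1.44 to 5.43 CPM (median 3.59) in treated p53+/- lymphomas. Every tumour was below every normal thymus. Its log2 fold changes were -2.89 ± 0.33, -2.58 ± 0.33 and -2.80 ± 0.30 (adjusted p at most 8.02e-08).

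Ak1 (ENSMUSG00000026817, chr2:32621758-32635058, plus strand), a cytosolic adenylate kinase that balances adenine nucleotides, was present at low levels, with 1.57 to 12.3 CPM (median 5.74) in normal thymus, 0.235 to 10.8 CPM (median 1.14) in untreated p53-/-, 0.218 to 1.46 CPM (median 0.743) in treated p53-/- and 0.473 to 3.5 CPM (median 1.1) in treated p53+/- lymphomas. All treated p53-/- tumours were below every normal thymus, and 1 untreated tumour, of mouse 562, was at 10.8 CPM. Without that tumour the log2 fold change of the untreated group was -2.68. With all mice the values were -1.78 ± 0.56, -3.08 ± 0.57 and -2.50 ± 0.51, with adjusted p values of 0.00973, 3.2e-05 and 0.000112; the first was 0.0683 when only those 2 groups entered the fit.

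Sesn1 (ENSMUSG00000038332, chr10:41809935-41908424, plus strand), a sestrin that restrains mTORC1 signalling, had 83.4 to 135 CPM (median 100.1) in normal thymus, 20.2 to 95.1 CPM (median 52.2) in untreated p53-/-, 21.5 to 71.6 CPM (median 49.8) in treated p53-/- and 28.6 to 88.2 CPM (median 60.3) in treated p53+/- lymphomas. No normal thymus was as low as 8 of 10, 9 of 9 and 11 of 12 of these tumours. The log2 fold changes were -0.88 ± 0.23, -1.25 ± 0.23 and -0.96 ± 0.22 (adjusted p at most 0.00252). Its paralogue Sesn2 had 0.12, 0.10 and 0.36 and was not called (adjusted p at least 0.402), with 1 p53+/- tumour, of mouse 894, at 86.7 CPM where its group median was 18.1 CPM.

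Gls2 (ENSMUSG00000044005, chr10:128194457-128210004, plus strand), a mitochondrial glutaminase, had 0.167 to 1 CPM (median 0.583) in normal thymus, 0.396 to 8.35 CPM (median 1.23) in untreated p53-/-, 0.304 to 2.83 CPM (median 1.08) in treated p53-/- and 0.269 to 3.08 CPM (median 1.18) in treated p53+/- lymphomas. It was higher in untreated p53-/- tumours (1.86 ± 0.62, adjusted p = 0.0151; 0.148 with limma voom and 0.0542 when only the 2 groups were fitted), and 0.78 ± 0.56 and 1.16 ± 0.54 in the treated groups were not called (adjusted p = 0.248 and 0.0707). The p53+/- value was called when only the 2 groups were fitted (adjusted p = 0.0273) and without mouse 266, 280 or 980. The groups overlapped, and the gene overlaps Spryd4.

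Tigar (ENSMUSG00000038028, chr6:127085116-127109557, minus strand), a fructose bisphosphatase that slows glycolysis, had 3.06 to 5.47 CPM (median 4.22) in normal thymus, 1.96 to 60.3 CPM (median 6.69) in untreated p53-/-, 3.46 to 11.3 CPM (median 5.45) in treated p53-/- and 1.29 to 7.88 CPM (median 4.51) in treated p53+/- lymphomas. Its call in untreated tumours (1.24 ± 0.50, adjusted p = 0.0435) was lost on leaving out any 1 of 9 of the 18 mice. Without mouse 120, at 60.3 CPM, the value was 0.46 (adjusted p = 0.335). The call was also lost with limma voom, no filter, no scaling factors and only the 2 groups fitted (adjusted p from 0.0699 to 0.221). In the treated groups it was 0.23 ± 0.45 and -0.05 ± 0.42 (adjusted p = 0.695 and 0.928).

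Slc19a2 (ENSMUSG00000040918, chr1:164249046-164265385, plus strand), the high-affinity thiamine transporter, had 4.45 to 9.8 CPM (median 6.19) in normal thymus, 5.01 to 14.8 CPM (median 6.87) in untreated p53-/-, 3.59 to 13 CPM (median 8.65) in treated p53-/- and 6.18 to 15.3 CPM (median 11) in treated p53+/- lymphomas. The groups overlapped. It was higher in p53+/- tumours (0.61 ± 0.24, adjusted p = 0.0346), a call lost on leaving out any 1 of 7 of the 20 mice (adjusted p up to 0.0763) and with limma voom, no filter or no scaling factors (adjusted p from 0.0586 to 0.0663), and was not called in the p53-/- groups (0.28 and 0.31).

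Abhd4, a lipase of N-acyl phospholipids, was lower in p53+/- tumours (-0.70 ± 0.28, adjusted p = 0.0352), a call lost on leaving out any 1 of 9 of the 20 mice, with the value at -0.44 (adjusted p = 0.225) without normal mouse 387, and had -0.63 and -0.62 in the p53-/- groups, called only without mouse 637 (adjusted p = 0.0166) in the first and without mouse 869 or mice 869, 870 and 328 (adjusted p = 0.0435 and 0.0444) in the second. Gdf15 (ENSMUSG00000038508, chr8:70629393-70632456, minus strand), a stress-induced cytokine, was low in all samples, at 0.5 to 2.73 CPM (median 0.847) in normal thymus, 0.141 to 2.22 CPM (median 1.01) in untreated p53-/-, 0.436 to 2.08 CPM (median 1.22) in treated p53-/- and 0 to 6.11 CPM (median 0.953) in treated p53+/- lymphomas. Its ranges overlapped, and -0.41 ± 0.59, -0.20 ± 0.59 and 0.17 ± 0.55 were not called (adjusted p at least 0.607). Leaving out single mice turned its sign in both treated groups, to 0.070 and -0.36.

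A narrower count asks in which targets every tumour of a group lay outside the range of normal thymus. Every untreated p53-/- tumour was below every normal thymus for 4 targets (12.1%, against 3.79% of all genes tested), every treated p53-/- tumour for 7 (21.2%, against 7.92%) and every treated p53+/- tumour for 4 (12.1%, against 4.83%). Every tumour was above every normal thymus for 2, 2 and 3 targets (6.06%, 6.06% and 9.09%, against 6.8%, 11.4% and 9.77%).

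Other genes of the pathway, outside the 34, did not all move as the lower targets did. Of 12 regulators and family members 4, 5 and 4 were lower and 6, 6 and 5 higher in the same order of groups. That is 33.3%, 41.7% and 33.3% lower and 50%, 50% and 41.7% higher, against 17.5%, 26.7% and 25.3% and 23.2%, 25.4% and 25.6% of all genes, with median log2 fold changes of 0.59, 0.51 and 0.38. Trp53 was lower, with log2 fold changes of -1.08 ± 0.25, -1.21 ± 0.25 and -1.32 ± 0.23, and Cdkn2a, the locus of p16 and of the Mdm2 inhibitor p19Arf, was higher by 6.89 ± 0.53, 7.03 ± 0.51 and 6.98 ± 0.51. Of 16 further p53 targets 4 were lower in each group and 4, 3 and 5 were higher, with median log2 fold changes of 0.23, 0.11 and 0.08. The lower share of 25% and the higher shares of 25%, 18.8% and 31.2% were near those of all genes. Kitl, the ligand of Kit, was lower (-2.70 ± 0.47, -2.79 ± 0.47 and -2.73 ± 0.43, adjusted p at most 1.85e-05), and Zfp365, linked to genome stability, was higher (2.88 ± 0.28, 2.79 ± 0.28 and 2.83 ± 0.28, adjusted p at most 1.15e-09).

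The comparison of treated p53+/- with treated p53-/- lymphomas asks whether tumours that began with a p53 allele differ in these targets. No target was called with edgeR, DESeq2 or limma voom, and in edgeR's quasi-likelihood test no gene of the 16389 tested was (0%). At an unadjusted p under 0.05 there were 3 targets among 33, where 5.27% of all genes were at that level. These were Pmaip1, with a log2 difference of 1.59 ± 0.61 (p = 0.0135, adjusted p = 0.934 over all genes in edgeR), Bbc3 with 1.32 ± 0.60 (p = 0.0351, adjusted p = 0.94) and Triap1 with -0.29 ± 0.14 (p = 0.0455, adjusted p = 0.94). Cdkn1a followed with 0.69 ± 0.44 (adjusted p = 0.967) and Ptprv with 0.55 ± 0.36 (adjusted p = 0.967). The range over the 33 targets was -0.32 to 1.59.

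Leaving out each of the 21 treated mice in turn, which was chosen after seeing the data, gave no call, and the unadjusted p of the differences depended on single tumours. Pmaip1 was lowest without p53+/- mouse 862, at 0.63 (p = 0.157, adjusted p = 0.909 in edgeR), and was at an unadjusted p under 0.05 without any of the other 20. Bbc3 ran from 1.03 without p53+/- mouse 280 (p = 0.0772, adjusted p = 0.963) to 1.58, and was at an unadjusted p under 0.05 in 14 of the 21 fits. Triap1 ran from -0.35 to -0.21 and was at that level in 9. Cdkn1a and Ptprv were lowest without p53+/- mouse 884, at 0.39 (p = 0.314, adjusted p = 0.99) and 0.29 (p = 0.36, adjusted p = 0.99). With limma voom Pmaip1 was 0.90 (p = 0.186, adjusted p = 0.988), Bbc3 1.02 (p = 0.0935, adjusted p = 0.988) and Cdkn1a 0.40 (p = 0.319, adjusted p = 0.988). With DESeq2 these were 1.58 (p = 0.00407, adjusted p = 0.436), 1.32 (p = 0.0124, adjusted p = 0.563) and 0.68 (p = 0.0934, adjusted p = 0.818), and Triap1 stayed at an unadjusted p under 0.05 with both tools (0.0341 with DESeq2 and 0.0411 with limma voom).

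The comparison of treated with untreated p53-/- lymphomas asks whether the transient Plk4 induction left a trace in these targets in tumours without p53. No target was called with edgeR, DESeq2 or limma voom (in edgeR 0% of 16389 genes), and 2 of 33 were at an unadjusted p under 0.05, where 11.7% of all genes were. Ak1 had a log2 difference of -1.26 ± 0.60 (p = 0.0423, adjusted p = 0.413 in edgeR) and Triap1 of 0.38 ± 0.16 (p = 0.0244, adjusted p = 0.367). Untreated mouse 562 had 10.8 CPM of Ak1, where the next highest of its group had 1.45 CPM. The Ak1 difference was not refitted without that mouse. Over the 33 targets the differences ran from -1.37 to 0.42. Treated p53+/- and untreated p53-/- lymphomas differ in genotype, in treatment and in labelled sex (3 male and 9 female mice against 9 and 1). Between them no target was called with any of these tools (in edgeR 0% of 16389 genes). None was at an unadjusted p under 0.05, against 6.33% of all genes, and the differences ran from -1.11 to 0.61. A difference that was not called does not show that the groups are alike.

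**Figure D3:**
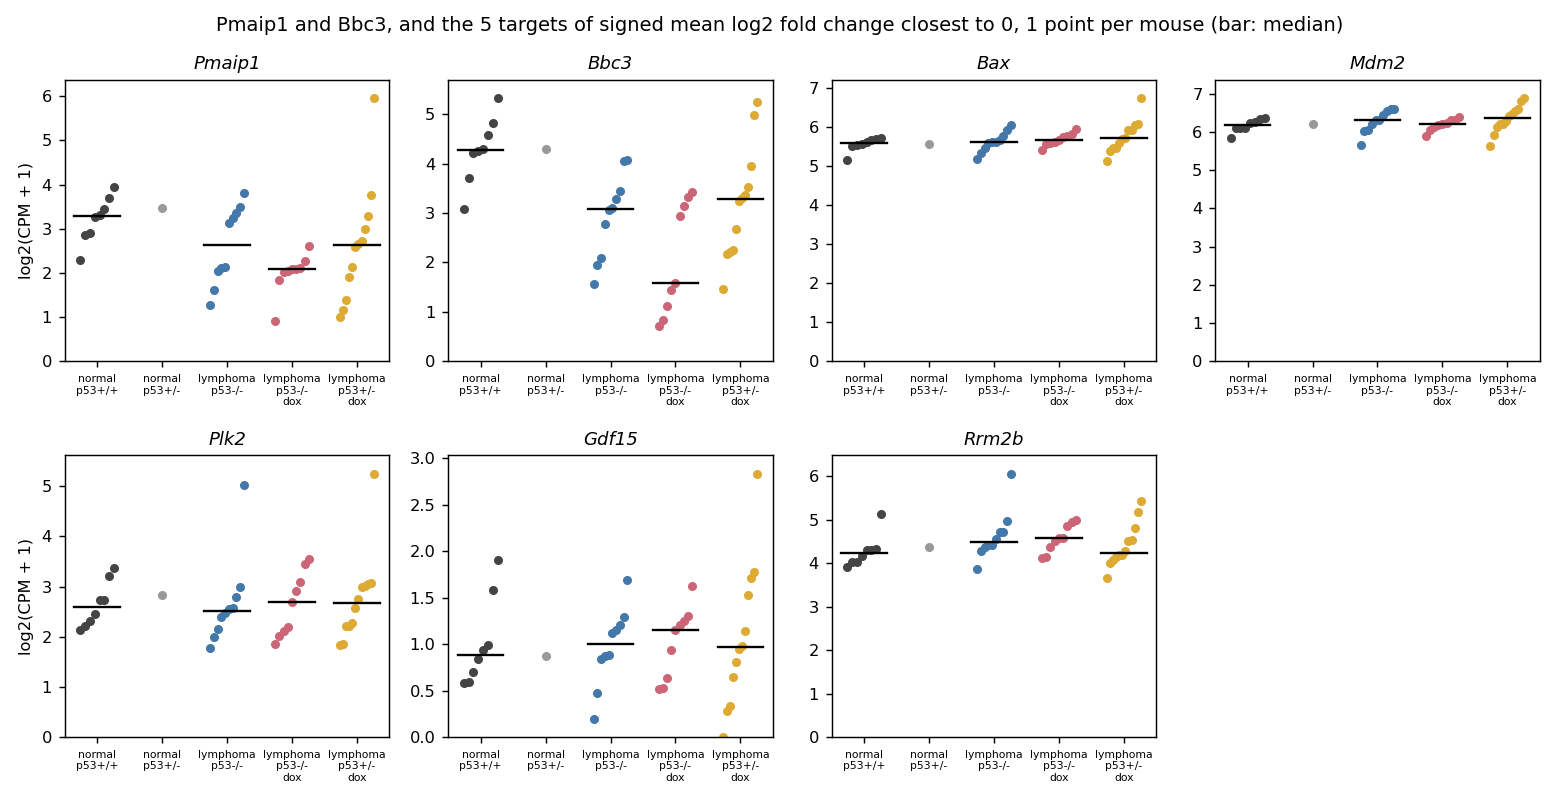
Level of Pmaip1 and Bbc3, the targets with the smallest p between p53+/- and p53-/- treated tumours, and of the 5 targets whose log2 fold change against normal thymus, averaged with its sign over the 3 groups so that opposite signs cancel, was closest to 0 (Bax, Mdm2, Plk2, Gdf15 and Rrm2b), as log2(CPM + 1) with 1 point per mouse sorted by value and the median as a bar. Bax and Mdm2 form level bands across all groups, while Pmaip1 reaches 61.0 CPM in 1 p53+/- tumour.

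Several high values belonged to single tumours and were seen in most or all of their biopsies. In the p53+/- tumour of mouse 884 Cdkn1a was at 18.4, 98.0, 77.8 and 93.5 CPM in biopsies 2, 5, 6 and 8, so that 3 of 4 regions were above every normal thymus and 1 was below all of them. The same region that was low in Cdkn1a was the highest in Ptprv, at 134 CPM against 43.6 to 48.8 CPM in the others. In the p53+/- tumour of mouse 862 Pmaip1 was at 56.3, 81.3, 67.4, 47.4 and 29.2 CPM in its 5 biopsies, all above the highest normal thymus (14.3 CPM). There Psrc1 ran from 42.7 to 58.3 CPM and Ei24 from 86.6 to 97.6 CPM. Such Ei24 levels were not particular to this tumour. The highest normal thymus had 92.6 CPM, and the p53-/- tumours of mice 157, 202, 562 and 663 had 95.6, 104, 107 and 96.5 CPM.

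Across the 13 tumours with several biopsies, the spread of log2 CPM among biopsies of a tumour was smaller than that among mice of a group for 32 of 34 targets, with a median ratio of 0.572 and a range from 0.233 (Btg2) to 1.40 (Slc19a2). Without the 4 libraries under 5000000 counts it was smaller for 33 of 34, with a median ratio of 0.518, the exception being Perp at 1.04. Perp ran from 0.239 to 28.5 CPM within the tumour of mouse 905 and from 3.37 to 68.3 CPM within that of mouse 881. Biopsies of a tumour are not independent, and these ratios are a description without a test.

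**Figure D4:**
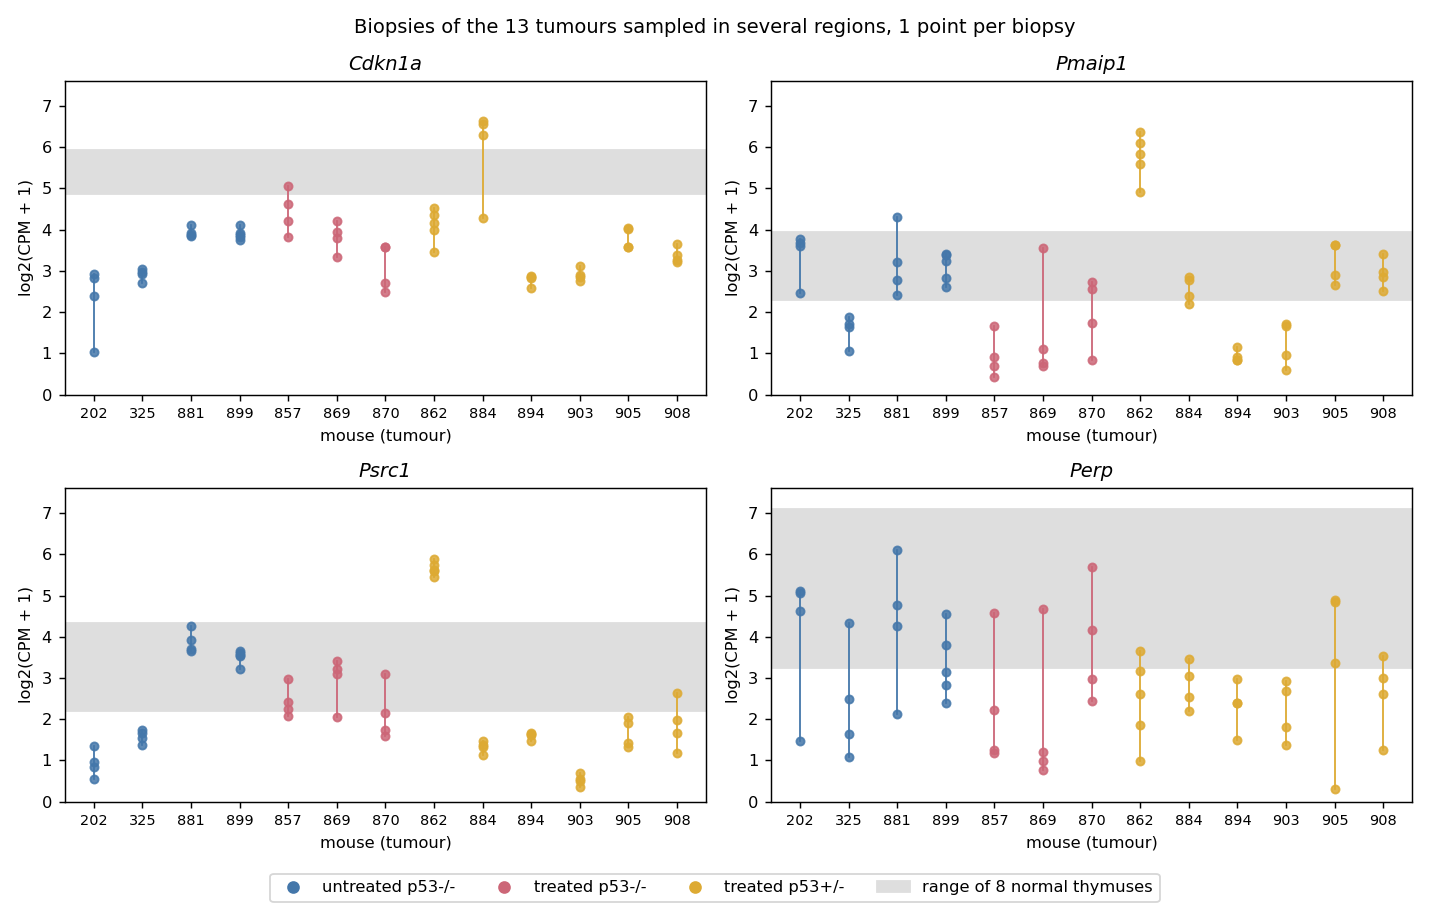
Cdkn1a, Pmaip1, Psrc1 and Perp in each biopsy (1 point) of the 13 tumours sampled in several regions, as log2(CPM + 1), with a line joining the biopsies of a tumour and a grey band for the range of the 8 normal p53+/+ thymuses. Mouse 862 stands above the band in Pmaip1 and Psrc1 in all 5 biopsies, 3 of the 4 biopsies of mouse 884 stand above it in Cdkn1a, and Perp spreads widely within tumours.

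The normal thymus of the single untreated p53+/- mouse gave values without a test. Of the 34 targets 29 lay within the range of the 8 p53+/+ thymuses, 4 below it and 1 above, where 8.74% of all 17843 genes were below and 7.75% above, so these counts were near the background. Below it were Cdkn1a at 16.7 CPM (lowest p53+/+ value 28), Phlda3 at 23.8 (31.2), Ei24 at 48.4 (51.4) and Ak1 at 1.14 (1.57), and above it was Polk at 17.8 CPM. Its fat markers summed to 155 CPM, under the 741 CPM of the lowest p53+/+ thymus, and their part in these values was not tested.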

How the data were processed

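Gene-level expected counts were deposited by the authors as 1 table for 81 libraries; the submitters' processing notes list CASAVA 1.8, fastp, STAR 2.7.2b, RSEM 1.1.17 and the mm10 build, without their settings or the strandedness of the counting. The counts were rounded, summed over the biopsies of a mouse and fitted in R 4.3.3 with edgeR 4.0.16 (TMM factors, filterByExpr, quasi-likelihood test, labelled sex as covariate, Benjamini-Hochberg adjustment over all genes tested), with a call at an adjusted p under 0.05. Comparisons with normal thymus used the 4 groups with replicates, and comparisons between lymphomas the 3 lymphoma groups. CPM values per mouse use TMM factors over all 40 mice, and those per biopsy TMM factors over the 81 single libraries. Both differ from the factors of the fits, and biopsies and the normal range beside them are on different factors. The fit was run on simulated counts with 200 genes changed in treated p53-/- tumours only and the same dispersion for every gene. That setting is simpler than these data and does not show how the calls behave here. Alternatives were DESeq2 1.42.0, limma voom (limma 3.58.1), other scaling, no filter, no sex term, 1 biopsy per mouse, fewer libraries, groups or mice.

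The 34 members and all gene lists were chosen with earlier results of these data known. Full values are given for members called in 1 direction in all 3 lymphoma groups, members called higher anywhere, the 5 of smallest p between treated p53+/- and p53-/- tumours and the 5 whose signed mean log2 fold change against normal thymus was closest to 0; Bbc3, Pmaip1 and single tumours named for high values were followed up after their values were seen. No batch or library date is given in the labels, and mouse numbers pair no samples. Gene positions are from GENCODE M21 on mm10, and 4 libraries held fewer than 5000000 counts.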

Additional observations from a re-analysis of the deposited data

Results flagged for a closer look

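In 16 of 99 tests of a target in a group of 8 to 10 mice, the highest or lowest mouse stood far from the next, a gap that chance gives in about 1 in 20 groups. The flags fell on 7 mice, and 8 of them on normal thymus 387. That thymus was highest in Phlda3 (94.4 CPM), Rrm2b (34.4 CPM), Ei24 (92.6 CPM) and Dram1 (76.5 CPM), and lowest in Bax (34.3 CPM), Aen (27.1 CPM), Fas (26 CPM) and Perp (8.47 CPM). Its marker sums also stood apart, with 11872 CPM of fat markers, 1170 CPM of B-lineage markers and 102 CPM of thymic epithelial markers.

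Among untreated p53-/- lymphomas, mouse 881 was highest in Rrm2b (65.7 CPM) and Plk2 (31.3 CPM), mouse 562 highest in Ak1 (10.8 CPM), mouse 643 lowest in Phlda3 (0.422 CPM) and mouse 637 lowest in Dram1 (1.17 CPM). Among treated p53-/- lymphomas, mouse 663 was lowest in Fas (2.22 CPM) and Ptprv (4.44 CPM), and mouse 857, whose libraries include 3 under 5000000 counts, was lowest in Pmaip1 (0.871 CPM). The group of 12 treated p53+/- lymphomas was too large for this rule.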

How the results depend on the processing

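Of 50 called values 39 were called in the same direction under every alternative in tool, scaling, filter, covariate, biopsies and left-out mice that was run, and 41 when any single mouse was left out. The number of lower targets was 9 to 13 in untreated p53-/-, 11 to 18 in treated p53-/- and 11 to 16 in p53+/- lymphomas, and of higher targets 3 to 5, 3 and 3 to 6. In untreated p53-/- tumours 3 were higher with limma voom and 3 when only the 2 groups compared were fitted, instead of 5. Leaving out mice gave 9 to 12 lower and 4 to 5 higher, 11 to 16 and 3, and 11 to 16 and 3 to 6. Counts include Eda2r where it passed the filter or no filter was used. No alternative gave a call between lymphoma groups. Without scaling factors the median of all genes moved by -0.13, -0.05 and -0.12, and with limma voom by -0.15, -0.06 and -0.08. The cause of these changes was not tested.

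Changes of sign were limited to values called in neither setting. In untreated p53-/- tumours Mdm2 was -0.0034 with DESeq2, -0.0073 with limma voom, -0.0032 with RLE factors, -0.13 without scaling and -0.0065 without the sex term, and Sesn2 was -0.20 with limma voom and -0.040 without scaling. In treated p53-/- tumours Bax was 0.039 without mice 869, 870 and 328, 0.0031 with 1 biopsy per mouse and 0.011 with only the 2 groups fitted. In p53+/- tumours Mdm2 was -0.015 with DESeq2, -0.012 with limma voom, -0.016 with RLE factors and -0.13 without scaling, and Bax was -0.056 without scaling. There Pmaip1 was 0.066, Rrm2b 0.056 and Tigar 0.040 without mice 869, 870 and 328, Rrm2b was 0.069 with limma voom and 0.0018 without the sex term, and with limma voom Plk2 was -0.081 and Gdf15 -0.52. Over single left-out mice, the values that changed sign in untreated p53-/- tumours were Mdm2 (-0.017 to 0.078), Bax (-0.11 to 0.015), Sesn2 (-0.11 to 0.29) and Plk2 (-0.24 to 0.71). In treated p53-/- tumours they were Bax (-0.073 to 0.027), Sesn2 (-0.038 to 0.33), Plk2 (-0.32 to 0.019) and Gdf15 (-0.40 to 0.070). In p53+/- tumours they were Mdm2 (-0.034 to 0.097), Plk2 (-0.37 to 0.36), Gdf15 (-0.36 to 0.47), Pmaip1 (-1.01 to 0.20), Rrm2b (-0.13 to 0.29) and Tigar (-0.16 to 0.17).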
